A study of Homo sapiens with 2 samples.

Results

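The immediate early genes of the EGR, FOS and JUN families, with IER2, were compared between nilotinib-resistant and parental K562 cells. K562 is an established human chronic myeloid leukemia line whose growth depends on the BCR/ABL fusion kinase, the target of nilotinib. The genes were taken by name, as EGR1, EGR2, EGR3, FOS, FOSB, FOSL1, JUN, JUNB, JUND and IER2, without a threshold on a measured value, although earlier results of these data were known when the list was made. The array annotation gave 10 probes to 9 of these 10 genes, out of 47323 probes on the array, and no probe was named for EGR2, which therefore has no value here. Total RNA was hybridized to HumanHT-12v4 BeadChips, 1 array for nilotinibR cells and 1 for parental cells. NilotinibR cells had been taken stepwise through 0.1 and 0.3 µM nilotinib over 3 months and were grown in 1 µM nilotinib, whereas parental cells were carried alongside in drug-free medium. The resistant cells were a selected population of a single line and grew with the drug, so resistance and the presence of nilotinib cannot be told apart.

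Immediate early genes are switched on within minutes of a growth signal, before any new protein is made. Kinases of the ERK pathway, which BCR/ABL drives through RAS, phosphorylate ELK1 at the promoters of EGR1 and FOS, where ELK1 sits with the serum response factor SRF on a CArG box. EGR proteins are zinc finger transcription factors that bind GC-rich sites, and FOS and JUN proteins pair through leucine zippers to form the AP-1 transcription factor.

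The promoters of 4 members are shown because the control of these genes is encoded there and because they run from the member that differed most to one that stayed within 1.5-fold. Each run holds the 250 bases before the RefSeq transcript start in build GRCh38.p14, read 5′ to 3′ along the gene. Capitals mark matches to the motifs described after the sequences.
EGR1, chr5:138465229-138465478, plus strand: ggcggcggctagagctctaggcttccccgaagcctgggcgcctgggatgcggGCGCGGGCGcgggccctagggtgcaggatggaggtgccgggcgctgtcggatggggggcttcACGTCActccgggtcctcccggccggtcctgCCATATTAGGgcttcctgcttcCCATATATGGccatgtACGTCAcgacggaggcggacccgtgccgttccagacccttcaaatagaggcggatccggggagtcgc
FOS, chr14:75278578-75278827, plus strand: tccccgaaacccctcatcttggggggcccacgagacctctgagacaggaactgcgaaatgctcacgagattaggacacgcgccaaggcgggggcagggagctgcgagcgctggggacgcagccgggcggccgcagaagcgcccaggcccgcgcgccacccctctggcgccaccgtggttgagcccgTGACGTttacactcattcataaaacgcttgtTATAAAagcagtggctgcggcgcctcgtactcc
JUN, chr1:58784048-58784297, minus strand: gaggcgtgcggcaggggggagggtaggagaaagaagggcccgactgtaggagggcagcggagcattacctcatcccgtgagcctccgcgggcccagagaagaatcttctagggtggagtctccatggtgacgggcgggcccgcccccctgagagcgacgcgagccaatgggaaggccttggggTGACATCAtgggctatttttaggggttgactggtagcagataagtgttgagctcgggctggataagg
JUND, chr19:18281623-18281872, minus strand: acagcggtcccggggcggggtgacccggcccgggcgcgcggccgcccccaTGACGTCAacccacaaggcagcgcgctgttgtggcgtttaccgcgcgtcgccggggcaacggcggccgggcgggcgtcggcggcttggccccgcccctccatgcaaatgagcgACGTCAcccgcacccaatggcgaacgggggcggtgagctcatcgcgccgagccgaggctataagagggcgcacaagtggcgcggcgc

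Of the 10 members, 8 had a promoter entry in the RefSeq table that was used here, and EGR2 had 3. The motifs searched on both strands were the CArG box of SRF, the core TGACGT and the longer TGACNTCA of CREB and ATF sites, the AP-1 site TGANTCA, the EGR site GCGNGGGCG, the ETS site CCGGAAG and the TATA box TATAAA. The motifs TGACGT and TGACNTCA overlap wherever the central base of the longer one is G. The EGR1 promoter held 2 CArG boxes, which began 105 and 83 bases before the start, and 1.16% of the 35116 promoters in the table held at least 1. It also held TGACGT at 136 and 67 bases (7.10% of promoters) and an EGR site at 198 bases (8.41%). One of the 3 EGR2 promoters was the only other member promoter with a CArG box in this window, 71 bases before its start. FOS had TGACGT 64 bases and a TATA box 33 bases before the start, and FOSB had the same pair at 60 and 30 bases. JUN carried TGACNTCA at 67 bases (6.87% of promoters) in the form TGACATCA, while JUND carried it at 200 bases, where it overlaps TGACGT, and TGACGT again at 87 bases. JUNB had a TATA box 31 bases before the start (10.7% of promoters), and IER2 an ETS site at 27 bases (8.52%). None of the member promoters held the AP-1 site TGANTCA in this window, which 6.57% of promoters did. A match describes letters in this window and is not a measured binding site. Bases further upstream were not searched, so the lack of a CArG box match in FOS covers these 250 bases only.

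**Figure D1:**
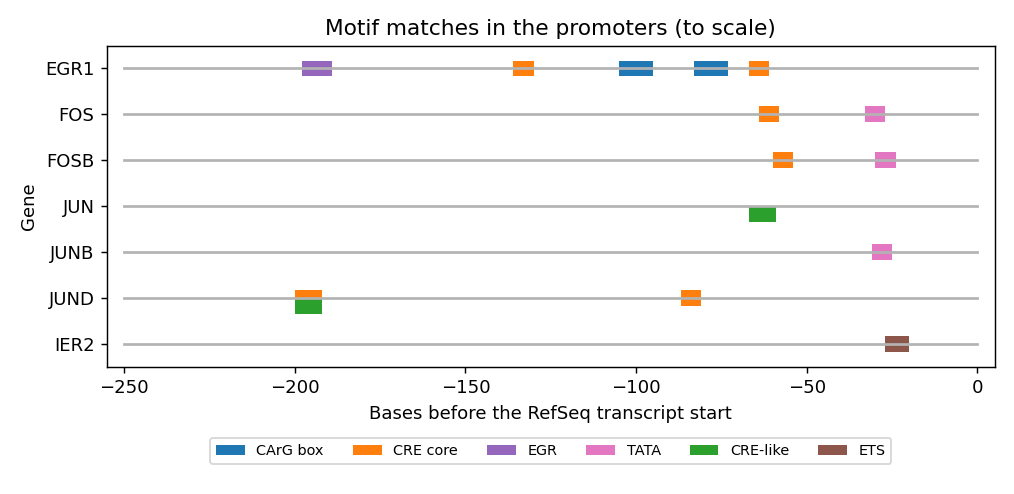
Motif matches in the 250 bases before the transcript start of the 7 members that have a promoter entry and a value on the arrays, drawn to scale against distance from the start in bases (overlapping CRE core and CRE-like matches are offset). Among these 7, the CArG boxes within this window lie in EGR1 alone, at 105 and 83 bases, and CRE cores (TGACGT) lie in EGR1, FOS, FOSB and JUND. Bases further upstream were not searched.

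The values used are the deposited intensities, which are linear and in arbitrary units. Their most frequent value was 109 on the nilotinibR array and 111 on the parental array, so the dim probes lay on a floor above 0. The intensities spanned 88.2 to 22044 on the nilotinibR array and 92.8 to 21126 on the parental array. A probe counted as above the dim probes where it exceeded 119 on the nilotinibR array or 120 on the parental array, a level that a normal background passes 5% of the time. After normexp background correction with an offset of 50 and quantile normalization, the parental log2 level was subtracted from the nilotinibR level. There was 1 array per condition, so no difference has a replicate check and no p-value is given. Over the 13197 genes kept, the median log2 difference was -0.0026. Markers of the labelled line were present. All 10 measured genes of erythroid identity exceeded both thresholds, the fetal and embryonic globins among them. None of these 10 was 1.5-fold lower in nilotinibR cells, and their median log2 difference was 0.37. Against 7.49% of all genes kept, 5 of the 10 exceeded their parental level by 1.5-fold or more. They were the erythroid transcription factor genes TAL1 at 3.69-fold, KLF1 at 2.80-fold and NFE2 at 1.52-fold, the TAL1 cofactor gene LMO2 at 2.62-fold and the transferrin receptor gene TFRC at 1.75-fold. Of 5 T cell markers measured, CD3D was 13.7-fold lower, with log2 levels of 6.13 in nilotinibR and 9.90 in parental cells. The other 4 stayed within 1.5-fold. The 2 kept CD3D probes had 112 and 119 in nilotinibR cells, at the dim level, so this fold depends on the floor. In parental cells they had 963 and 1082. Another CD3D probe was within the dim probes on both arrays. The summed level of the list, CD3D included, on the linear normalized scale was 345 in nilotinibR and 1296 in parental cells. CD3E, CD5 and CD8A were not above the dim probes on either array. Of 5 fibroblast and epithelial markers measured, KRT8 was 5.60-fold lower and the other 4 stayed within 1.5-fold. KRT18 did so as the mean of probes at log2 differences of -0.07 and -0.75. The sums of this list, KRT8 included, were 1041 in nilotinibR and 2020 in parental cells. None of the 4 B cell or 4 monocyte and granulocyte markers measured differed by 1.5-fold as the mean of its kept probes. LYZ was the mean of probes at -0.79 and 0.20, the second of which was within the dim probes in parental cells. The part of these markers in the results below was not tested, and in bulk RNA fewer cells with a transcript and less of it per cell cannot be told apart.

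Of the 9 members with a probe, 5 were at least 1.5-fold lower in nilotinibR cells than in parental cells and none was at least 1.5-fold higher. They were EGR1, FOS, FOSL1, IER2 and JUN, while without background correction 3 of them, EGR1, FOS and IER2, passed. Over all genes kept, 8.21% were at least 1.5-fold lower and 7.49% at least 1.5-fold higher, and without background correction 6.27% were at least 1.5-fold lower. All 9 members had a negative log2 difference, with a median of -0.60 against -0.0026 over all genes kept. Those of EGR3, FOSB, JUNB and JUND stayed within 1.5-fold. EGR3 was at -0.01, and 49.0% of all genes kept were at or below it. Of the 9, 7 exceeded both thresholds, while FOS and EGR3 cleared the threshold in parental cells only.

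**Figure D2:**
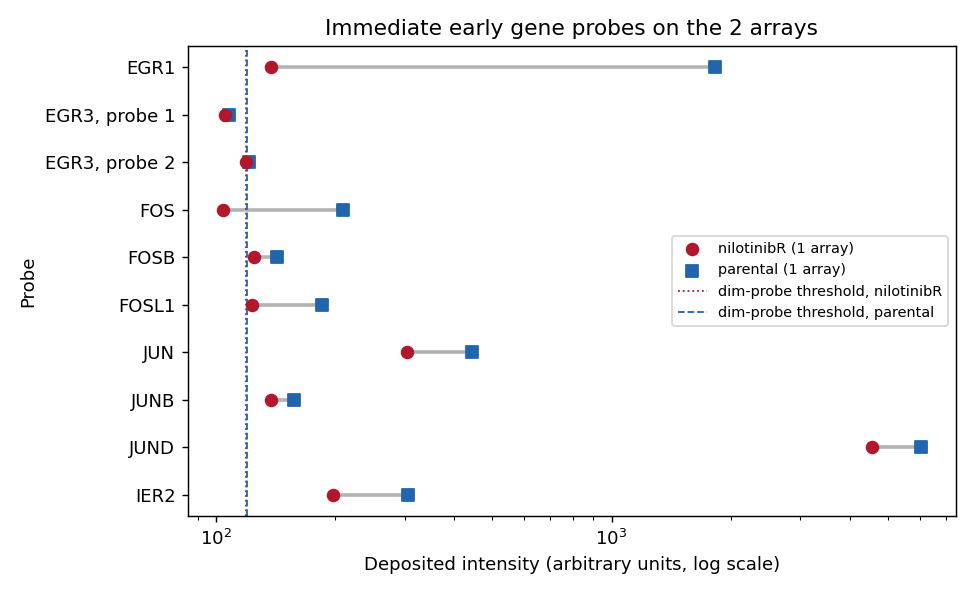
Deposited intensity of the 10 member probes (x axis, log scale, arbitrary units) on the nilotinibR array (red circles) and the parental array (blue squares), 1 array each, with the dim-probe threshold of each array as a vertical line. EGR1 is at 138 in nilotinibR and 1829 in parental cells, FOS falls under the line in nilotinibR cells, one EGR3 probe is under both lines and the other lies next to them.

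EGR1, the zinc finger factor that is a standard readout of ERK activity, had the largest difference of the members. Its probe had a deposited intensity of 138 in nilotinibR cells, against 1829 in parental cells. The parental value stood far above the dim probes, whereas the nilotinibR value was only 18.7 units over their threshold. The normalized log2 levels were 6.51 in nilotinibR and 10.76 in parental cells, a log2 difference of -4.25, or 19.1-fold lower. Among the 13197 genes kept, 1 had a lower log2 difference. The ratio of parental to nilotinibR deposited values was 13.3. The fold depends on how much of the floor is removed, as an offset of 16 in place of 50 gave 29.8-fold lower and no background correction gave 13.0-fold lower.

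EGR3, a close relative of EGR1 that is also induced by growth signals, was at the level of the dim probes on both arrays. Its first probe had 105 in nilotinibR cells and 108 in parental cells, under both thresholds. Its second probe had 118.9 in nilotinibR and 121.1 in parental cells, just under the threshold on the nilotinibR array and just over it on the parental array. A difference of EGR3 was not detectable at this brightness, where its kept probe had a log2 difference of -0.01. EGR2, known for its role in myelin formation, was not measured by a named probe.

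FOS, the founding AP-1 subunit that cannot pair with itself and needs a JUN partner, was above the dim probes in parental cells only. Its probe had 104 in nilotinibR cells, within the dim probes, against 210 in parental cells, which was 89.9 units over the threshold. Set against the dimmest probe over the threshold on the nilotinibR array, FOS was at least 2.23-fold lower in nilotinibR cells, a bound from normalized levels. The measured log2 levels were 5.88 in nilotinibR and 7.35 in parental cells, a difference of -1.47.

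FOSL1, also called FRA1, is a FOS protein whose induction follows that of FOS and lasts longer. Its intensity was 123 in nilotinibR cells, against 185 in parental cells. The nilotinibR value lay 4.39 units over the threshold and the parental value 65.0 units. The log2 difference was -0.85, or 1.80-fold lower, and 540 of the genes kept had a lower one. FOSB, which has a short form that lacks the transactivating tail, differed less. It had 125 in nilotinibR and 142 in parental cells, a log2 difference of -0.29, with both values within 22.4 units of the thresholds.

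JUN, the AP-1 subunit that can bind as a homodimer and acts on its own promoter, lay at the threshold of 1.5-fold. It had 305 in nilotinibR cells and 444 in parental cells, both well above the dim probes. The log2 levels were 8.02 in nilotinibR and 8.61 in parental cells, a difference of -0.60, or 1.51-fold lower. The call rests on the background step, since without background correction JUN was 1.43-fold lower and in the deposited values 1.46-fold lower.

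JUNB, which in many settings counters JUN, had 138 in nilotinibR and 158 in parental cells, a log2 difference of -0.29. These values lay only 18.9 and 37.8 units over the thresholds, so the size of its difference depends on the floor. With an offset of 16 JUNB was 1.36-fold lower, against 1.22-fold as reported. JUND, the JUN protein that most cell types express without stimulation, gave a strong signal on both arrays. It had 4558 in nilotinibR cells and 6038 in parental cells, a log2 difference of -0.42, or 1.34-fold lower. Of the 3 JUN genes, then, JUN passed 1.5-fold and JUNB and JUND did not, although no test separates their differences.

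IER2, a nuclear protein named as an immediate early response gene, had 198 in nilotinibR cells and 306 in parental cells. Both values were above the dim probes. The log2 levels were 7.24 in nilotinibR and 8.01 in parental cells, a difference of -0.77, or 1.71-fold lower, and 658 of the genes kept had a lower difference.

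**Figure D3:**
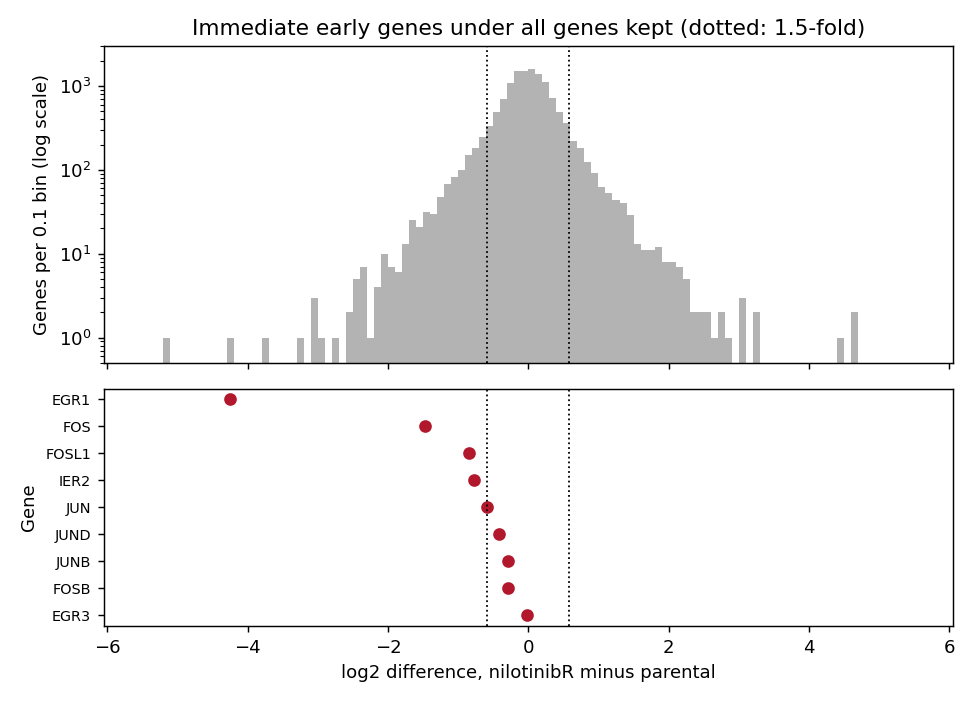
Upper panel, number of genes per 0.1 of log2 difference (y axis, log scale) among the 13197 genes kept. Lower panel, the 9 members on the same axis, all left of 0 but EGR3 next to it at -0.01. EGR1 is at -4.25 at the far end and JUN at -0.60 on the dotted line of 1.5-fold.

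Each member rests on 1 kept probe, so none of these values has a second reading on the arrays. For scale, the log2 differences of the probe pairs of 2596 other genes with exactly 2 kept probes lay a median of 0.19 apart, and 95% of the pairs lay within 0.78. The differences of EGR1 and FOSL1, and that of FOS also at its bound, were larger than 0.78. Those of IER2, JUN, JUND, JUNB, FOSB and EGR3 were smaller. This gap covers probe error and differences between transcripts. It leaves out the spread between cultures and any error of RNA preparation or array that both probes share.

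**Figure D4:**
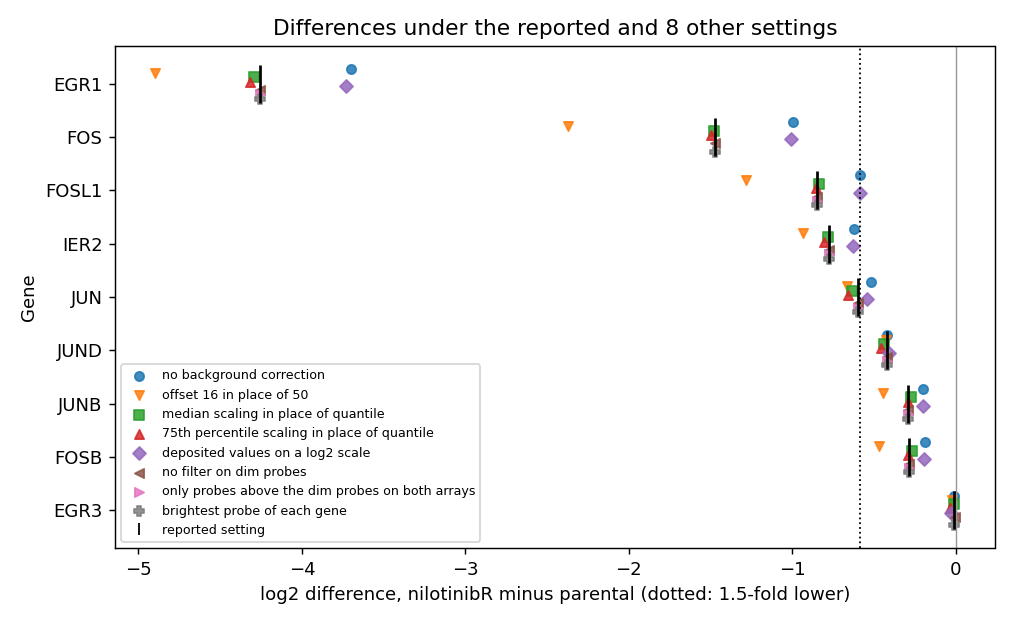
log2 difference of each member (x axis, nilotinibR minus parental) under the reported setting (black bars) and 8 other settings (symbols), with 1.5-fold lower as a dotted line. Every value is below 0, with EGR3 next to it at -0.01 as reported. An offset of 16 puts FOS at -2.37, against -1.47 as reported, and the settings with no background correction bring FOSL1 to about the line and JUN to its right.

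Among the partners of the EGR proteins, NAB2, a corepressor that EGR1 induces and that then restrains it, was 1.59-fold lower in nilotinibR cells, with log2 levels of 6.50 in nilotinibR and 7.17 in parental cells. WT1, a zinc finger factor that binds sites like those of EGR1, was 1.84-fold lower, and its probes lay at log2 differences of -0.97 and -0.79. NAB1, the other corepressor, was at -0.02. In this list, which counts WT1 beside the EGR partners, 2 of the 3 genes measured were at least 1.5-fold lower, against 8.21% of all genes kept. EGR4 exceeded neither threshold. Of 9 further genes of the AP-1 family and its leucine zipper partners, only ATF3, a stress-induced factor that pairs with JUN proteins, passed. It was 1.95-fold lower on 1 kept probe, and its other probes were within the dim probes on both arrays. The median of that list was -0.06, and FOSL2, the remaining FOS relative, was at 0.14.

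Genes upstream of the immediate early promoters stayed within 1.5-fold. None of 12 measured factors and ERK-activated kinases passed in either direction, and their median log2 difference was 0.01. Over all genes kept, 8.21% passed lower and 7.49% higher. SRF, which binds the CArG box, was at -0.42 and its ERK target partner ELK1 at -0.32. RPS6KA1, a kinase that ERK activates, was at -0.02, the mean of probes at -0.30 and 0.26. The second of these was within the dim probes in parental cells. ELK4, an ELK1 relative, was at 0.04, the mean of kept probes at -0.02, 0.25 and -0.11 that lay near the dim level. These are RNA levels and do not show phosphorylation.

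Of 32 other immediate early genes measured, 11 were lower by at least 1.5-fold and 4 higher by at least 1.5-fold. The shares over all genes kept were 8.21% lower and 7.49% higher. The median log2 difference of the 32 was -0.41. Of the 11, HES1 and ERRFI1 were above the dim probes in parental cells only. ID1, an inhibitor of basic helix-loop-helix factors, was 3.52-fold lower as the mean of probes at -2.66 and -0.97, the second of which was within the dim probes in nilotinibR cells. Its relative ID3 was 3.16-fold lower. CSRNP1, a nuclear protein induced by AXIN1, was 3.12-fold lower, and IER3, an immediate early gene linked to cell survival, was 2.80-fold lower. The 4 that went the other way, named after their values were seen, were DUSP1, a phosphatase that inactivates MAP kinases, at 1.70-fold higher, KLF10 at 1.68-fold, the mRNA decay factor gene ZFP36L2 at 1.58-fold and the antiproliferative gene BTG1 at 1.51-fold. NR4A1, a nuclear receptor that is a common immediate early marker, was at 0.08, with log2 levels of 6.41 in nilotinibR and 6.33 in parental cells that lay close to the dim probes.

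Of 15 genes measured from a list of genes known to be bound by AP-1 or EGR1 in some cell type, 6 were at least 1.5-fold lower. None was at least 1.5-fold higher, and the median was -0.46. Over all genes kept, the shares were 8.21% lower and 7.49% higher. NQO1, a quinone reductase, was 4.08-fold lower, the cyclin gene CCND1 4.01-fold, the chemokine gene CXCL8 3.51-fold and the filament gene VIM 3.31-fold. The NQO1 value is from 1 kept probe, and its other probe was within the dim probes on both arrays. CCND1 has 1 probe, at 124 in nilotinibR cells, near the dim level, and 361 in parental cells, so its fold depends on the floor. The CXCL8 probes lay at -2.24 and -1.38, and the probe with the smaller difference was within the dim probes in nilotinibR cells. Many other factors act on these genes, and NAB2 is in this list and in that of EGR partners.

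Immediate early genes also respond to the handling of cells before lysis, as heat shock genes do. Of 9 heat shock genes, 2 were lower by at least 1.5-fold, HSPH1 at 1.92-fold and HSPA8 at 1.86-fold, against 8.21% of all genes kept. None was at least 1.5-fold higher, against 7.49%. HSP90AA1 was at -0.53 as the mean of bright probes at -1.14 and -0.69, each past 1.5-fold lower, and a probe at 0.22 near the dim level on both arrays. The median log2 difference of the 9 was -0.37, and their summed level on the linear normalized scale was 14823 in nilotinibR and 21456 in parental cells. Their part in the values of the immediate early genes was not tested.

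**Figure D5:**
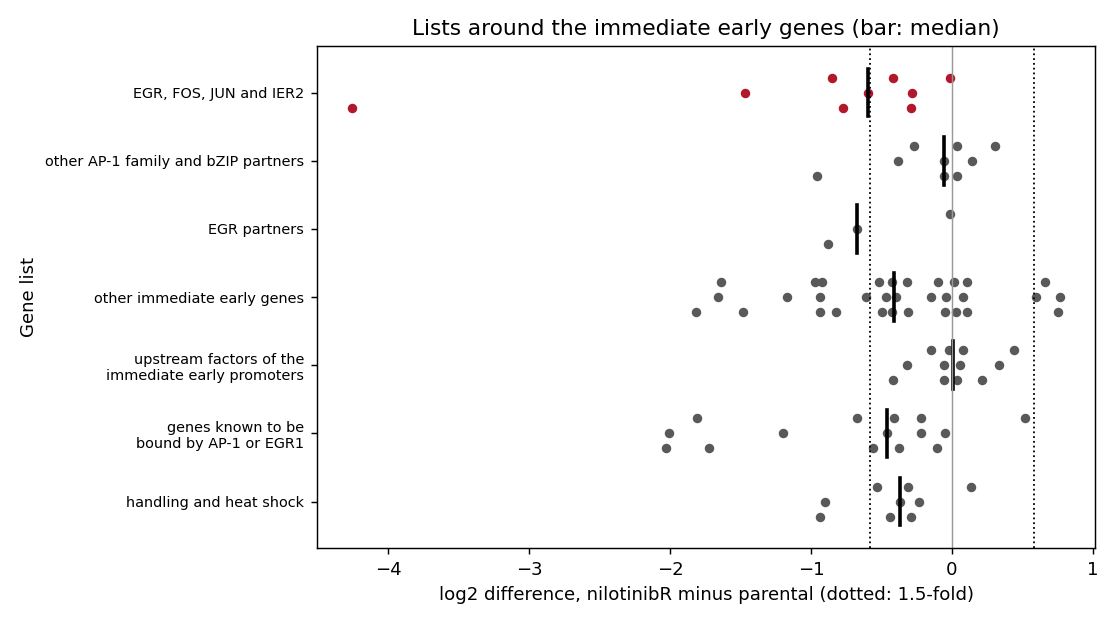
log2 difference (x axis, nilotinibR minus parental) of each measured gene in the 9 members (red) and in 6 lists around them (grey), with the median of each as a bar and 1.5-fold as dotted lines. The members have a median of -0.60, the other immediate early genes spread to both sides with a median of -0.41, and the upstream factors stay between the lines.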

How the data were processed

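The authors processed the BeadChip scans with GenomeStudio and named robust multichip average for normalization, and the deposited values are intensities on a linear scale. Of the steps behind these intensities, the sources used here say no more. A second table, with 4 columns of scanner signal and detection p, was left out because its column names fit no sample. With limma 3.58.1 in R 4.3.3, the intensities were corrected with normexp (offset 50), put on a log2 scale and quantile normalized. Probes above the dim level on at least 1 array were kept, and kept probes of a gene were averaged. Of the probes, 30113 had 1 symbol in the platform annotation (30074 of them matched in RefSeq), 8 had several and 17202 had none. A gene above the dim level on 1 array only is given as a bound. On its dim array it takes the larger of 2 values, its own level and that of the dimmest probe over the threshold. The fold threshold of 1.5 is that of the study's methods, which also set a limit on the p-value of a t test for each gene. That condition was not applied here. No test was run, as each condition had 1 array, and precision is limited by that number. Members and gene lists were chosen with earlier results of these data known. Named genes are all members and, from each list, up to 4 with the largest difference past 1.5-fold, and the 2 smallest of the upstream list. List genes given besides these were chosen after their values were seen. The steps were tested on simulated data, with changes planted only in genes well above the dim probes. Recovery at the brightness of the dimmer members was not tested. The 8 alternatives changed the background correction, offset, scaling, filter or probe choice.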

Additional observations from a re-analysis of the deposited data

How the results depend on the processing

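No paired analysis was possible because each condition has a single array, which also allows no replicate to be omitted. Of 110 values recomputed under an alternative, 102 kept their sign and their side of 1.5-fold, or stayed within 1.5 times the reported count. Measured members other than EGR3 have a single probe each, so changing the filter or the probe choice could only drop their values, not alter them. Such unaltered values are among the 102 by design. Without background correction 3 members were lower by at least 1.5-fold, with EGR1, FOS and IER2 past the threshold (6.27% of all genes), and the median over the members was -0.52. In the deposited values on a log2 scale that median was -0.54. FOSL1 was at -0.58 without background correction, at the threshold itself. JUN was at -0.52 without background correction and at -0.54 in the deposited values. With an offset of 16, 1654 of all genes were at least 1.5-fold lower and 1570 at least 1.5-fold higher, EGR1 was at -4.90 and FOS at -2.37. When only probes above the dim probes on both arrays were used, FOS and EGR3 gave no value and 4 of 7 members were at least 1.5-fold lower, against 10.1% of the 10698 genes with such probes.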
